A study of Mus musculus with 24 samples.

Results

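Potassium channel subunits were followed here in the hippocampus of mice that had drunk corticosterone overnight, at 3 times of the next day. A gene was included when its symbol, found through the transcript accession of an array probe, starts with Kcn. Kcnj8, Kcnj10 and Kcnj16 were left out by this rule. Of the 98 Kcn genes on the array, 95 were therefore kept, out of 23787 genes with a named probe. They were read by 155 probes and fall into 21 subfamilies, and 4 of them are long noncoding RNAs (Kcnd3os, Kcnmb4os1, Kcnmb4os2 and Kcnq1ot1). Where a gene had several probes, as 45 did, the brightest one stood for it.

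Male Swiss-Webster mice, 12 weeks old by the labels and then housed singly for some weeks, drank either water with 100 µg/ml corticosterone carried by 0.45% hydroxypropyl-beta-cyclodextrin, or water with the carrier alone (control), for the 12 h of one dark phase. Hippocampi were taken the next day in hour 1, hour 5 or hour 9 of the light phase, labelled time1, time2 and time3. Each of the 24 two-colour arrays held RNA of 1 control mouse in Cy3 and 1 treated mouse in Cy5, so that 8 arrays and 8 mice of each treatment represented each hour, 48 mice in all. Control mice were brothers of treated mice, and a group drew on several litters. The labels used here do not give the litter of a mouse, so the tests took the mice of a group as independent. The dyes were not swapped, so within an hour the treatment and the dye cannot be told apart. A dye difference that is constant for a probe cancels in the change of the effect between hours, and it is absent when mice of one treatment are compared between hours.

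Potassium channels set the resting potential, repolarize the action potential and limit repetitive firing. Their pore subunits belong to voltage-gated families (Kcna, Kcnb, Kcnc, Kcnd, Kcnh and Kcnq, with silent partners in Kcnf, Kcng, Kcns and Kcnv), calcium- or sodium-activated families (Kcnma, Kcnn, Kcnt), inward rectifiers (Kcnj) and leak channels of the tandem pore type (Kcnk), while Kcnab, Kcne, Kcnip and Kcnmb genes encode accessory subunits. In hippocampal pyramidal neurons they are best known for the dendritic A-type current, the M current, the afterhyperpolarization that follows bursts, and the currents that G protein coupled receptors open.

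Signals are given as background-corrected and normalized intensities in arbitrary units, and levels of members were compared for the same probe only. Summed signals of cell type markers add different probes, so a bright probe weighs most in them. A mean signal of 50 or more was reached by 77 of the 95 members (81.1%, against 64.9% of all named genes), and 72 members were well above background in each of the 48 channels. Kcne2, Kcnj1, Kcnk18, Kcnk5 and Kcnmb3 were well above background in none, and the remaining 18 in some. Per array, 78 to 85 members were well above background in the control channel and 80 to 87 in the corticosterone channel. The same difference held for all probes, of which a median of 62% passed in Cy3 and 68.1% in Cy5, and no spot was saturated. The number of arrays limits the precision of every value below.

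A pair of arrays stood apart from the others of their hour. Replicate 8 of hour 1 held the outlying log2 ratio for 5 named members, and its thalamic marker Tcf7l2 had a log2 ratio of 0.87, where the log2 fold change of Tcf7l2 over that hour was 0.20. Replicate 2 of hour 5 held the outlying value for 2 named members and the lowest log2 ratio of the dentate granule cell marker Prox1 (-0.69). In the main comparisons, the counts of members that passed are therefore given with each of these arrays and without it. Counts for subfamilies, probe pairs and other gene lists are given with all arrays alone. The arrays came from 3 slides. Slide 1 carried 2, 2 and 4 arrays of hours 1, 5 and 9, and slides 2 and 3 carried 3, 3 and 2 each, so every slide held every hour.

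The treatment labels were checked on 10 genes known to respond to glucocorticoids. All 10 passed the limma test (adjusted p under 0.05 over all 56605 probes) in the higher direction at hour 1, with a median log2 fold change of 0.66. At hour 1 the signal of Tsc22d3, a mediator of glucocorticoid action, was 3147, 3577 and 4289 (lowest, median and highest of 8) in control mice and 4442, 6855 and 10914 in treated mice. It was higher in the treated mouse on all 8 arrays. By hour 9, 2 of the 10 genes were higher and 4 were lower, among them Tsc22d3 and Fkbp5, a chaperone that restrains the receptor. The change of effect from hour 1 to hour 9 passed the test for 9 of the 10 genes, and was -1.51 ± 0.14 (log2, SE) for Tsc22d3 (adjusted p = 1.23e-10) and -0.83 ± 0.10 for Sgk1, a kinase that regulates ion channels (adjusted p = 1.46e-07). The hour labels were checked on 6 clock genes. In control mice 3 were higher at hour 9 than at hour 1, by 0.85 ± 0.09 for Dbp (adjusted p = 5.19e-08), 1.01 ± 0.13 for Nr1d1 (adjusted p = 5.15e-06) and 1.10 ± 0.18 for Ciart (adjusted p = 0.000104). In treated mice 4 of the 6 differed between these hours, 3 higher and 1 lower, and the corticosterone effect on clock genes passed for 1, 1 and 3 of the 6 at hours 1, 5 and 9.

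All 8 markers of hippocampal neurons were well above background in every channel. Among them Spink8, a marker of CA1 pyramidal cells, was higher in treated mice at every hour, and C1ql2, a granule cell marker, at hour 9, so 1, 1 and 2 of the 8 passed at hours 1, 5 and 9. Markers of other cell types moved as well. Among all named genes 20.7%, 20.8% and 15.6% passed at hours 1, 5 and 9, in either direction, and a difference of the markers from these shares was not tested. Of 6 GABA neuron markers 0, 4 and 2 were higher at hours 1, 5 and 9. The 0 at hour 1 is by limma, and 3 of the 6 had an unadjusted p under 0.05 there, as did 8172 of the 23787 named genes. Of 6 microglial markers 3, 2 and 1 were lower. Astrocytic and oligodendroglial markers moved in both directions at each hour, with Aldh1l1 higher and Aqp4 lower among 6 astrocytic markers, and 2 of 6 oligodendroglial markers higher and 2 lower. Of 6 endothelial and mural markers 3, 2 and 2 were lower and 1 was higher at each hour. The choroid plexus marker Ttr differed widely between arrays, with log2 ratios from -2.18 to 0.79 at hour 1 and from -1.03 to 1.24 at hour 9, while Prlr was the 1 of 6 choroid plexus markers that passed, at hour 1. At hours 5 and 9 none of these 6 passed by limma, with 1 and 0 at an unadjusted p under 0.05. Of 5 thalamic markers Tcf7l2 passed at hour 1, and none passed at hours 5 and 9 by limma or at an unadjusted p under 0.05. Kcne2 and Kcnj13 are the members known from choroid plexus. Kcne2 was not well above background in any channel. Kcnj13 had log2 fold changes of -0.19, -0.08 and -0.21 and passed at no hour (adjusted p = 0.334, 0.66 and 0.307). In these whole hippocampi, fewer cells of a type and less RNA per cell cannot be told apart, and the part of cell composition in the channel results below was not tested.

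At hour 1, corticosterone minus control passed the threshold for 16 of the 95 members, 9 higher (background over all named genes 10.3%) and 7 lower (background 10.4%). At hour 5, 18 members passed, 8 higher (background 9.9%) and 10 lower (background 10.9%). At hour 9, 14 passed, 7 higher (background 8.37%) and 7 lower (background 7.21%). In all, 16.8%, 18.9% and 14.7% of members passed at the 3 hours, against 20.7%, 20.8% and 15.6% of all named genes, so the members' shares lay near the background and are not a result about the members. At an unadjusted p under 0.05 there were 33, 34 and 29 members, and 8172, 8102 and 7160 of the 23787 named genes. The median log2 fold change of the members was 0.03, 0.02 and 0.02, and that of all named genes within 0.01 of 0 at each hour. Among the members that passed, the median size of the log2 fold change was 0.29, 0.29 and 0.30. Without replicate 8 of hour 1, 21, 19 and 15 members passed at hours 1, 5 and 9, and 15, 18 and 14 of the original ones were among them. Without replicate 2 of hour 5 the counts were 17, 17 and 14, with 16, 15 and 14 of the original ones. With slide as a block in the fit, 17, 17 and 14 members passed. The lowest counts came with a whole slide, and so several arrays, left out. They were 9 at hour 1 without slide 2, 9 at hour 5 without slide 3 and 1 at hour 9 without slide 1. The 1 member left at hour 9 was Kcnn2, so each other hour 9 call below was absent without slide 1.

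**Figure D1:**
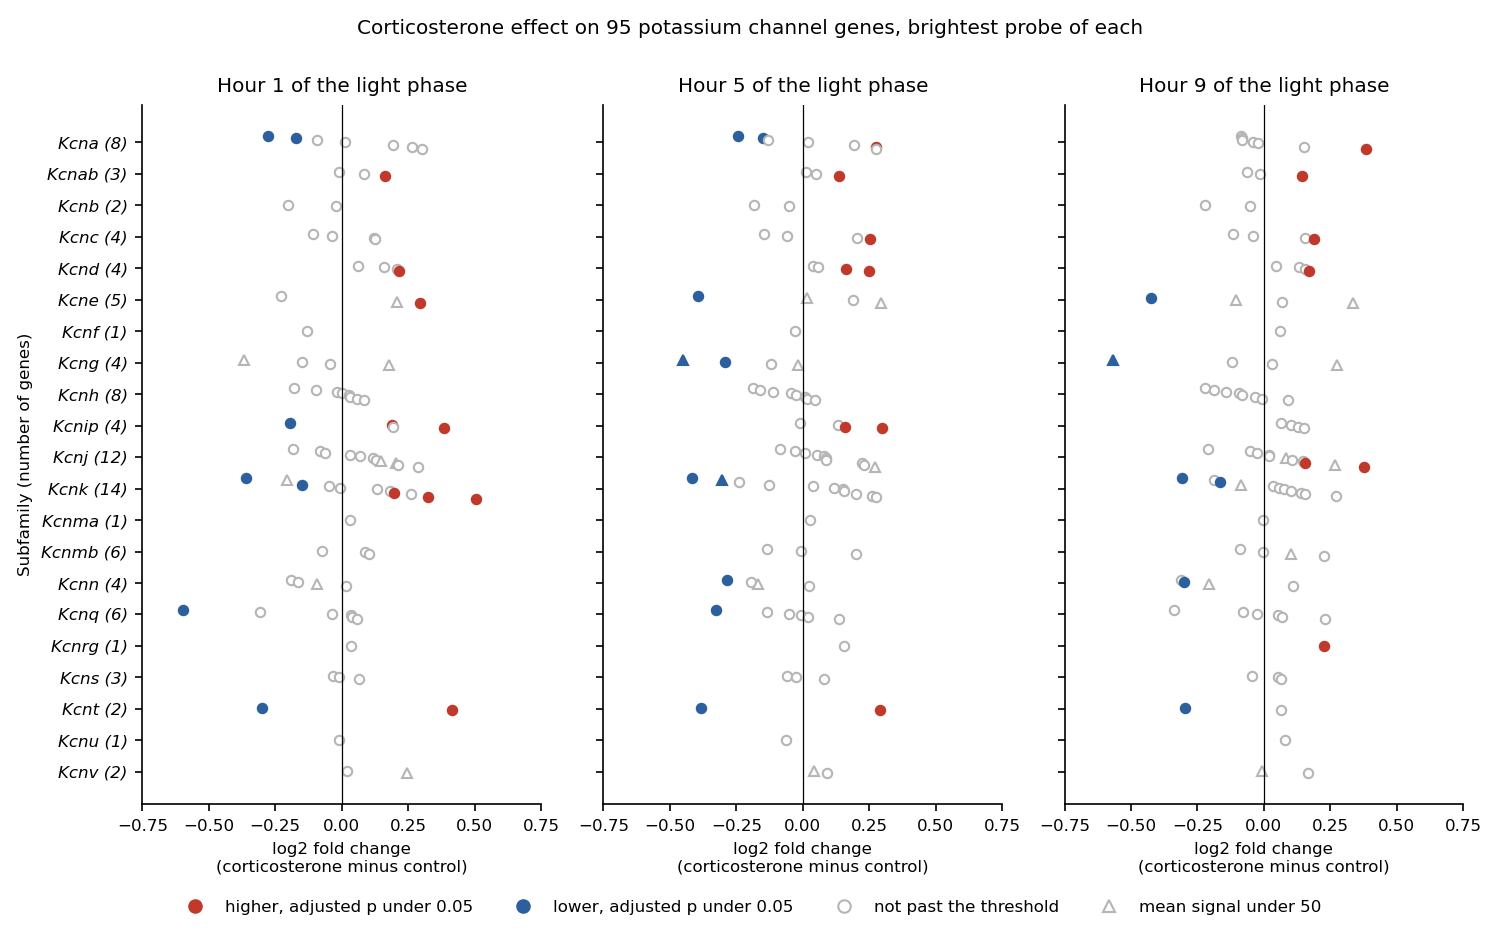
Log2 fold change of corticosterone minus control for the brightest probe of each gene, by subfamily, at hours 1, 5 and 9 of the light phase, with filled symbols for adjusted p under 0.05 and triangles for a mean signal under 50. Genes that had no channel well above background in 1 or both treatments of an hour are not drawn there, which leaves 85, 85 and 87 genes, and filled symbols lie on both sides of 0 at every hour.

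In all, 30 members passed at 1 or more hours. Kcnd2, Kcnab1 and Kcnt2 passed at each hour, in one direction each. A further 7 passed at hours 1 and 5 (Kcna4, Kcna6, Kcnip1, Kcnip2, Kcnk13, Kcnq1 and Kcnt1), 4 at hours 5 and 9 (Kcnc4, Kcne1l, Kcng3 and Kcnn2) and Kcnk9 at hours 1 and 9. Single hours accounted for the remaining 5 (hour 1: Kcne3, Kcnip3, Kcnk12, Kcnk2 and Kcnk3), 4 (hour 5: Kcna2, Kcnd3os, Kcng1 and Kcnk16) and 6 (hour 9: Kcna3, Kcnj14, Kcnj9, Kcnk6, Kcnmb3 and Kcnrg). These patterns count calls and do not test a difference between hours, which is given separately. Kcna6, Kcnd3os, Kcne3, Kcng1, Kcng3, Kcnk13, Kcnk16, Kcnmb3 and Kcnrg, and Kcne2 and Kcnj13, were chosen for naming after their values were seen. Kcnmb3 passed at hour 9 although no channel of either treatment was well above background, and no fold change is given for it.

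**Figure D2:**
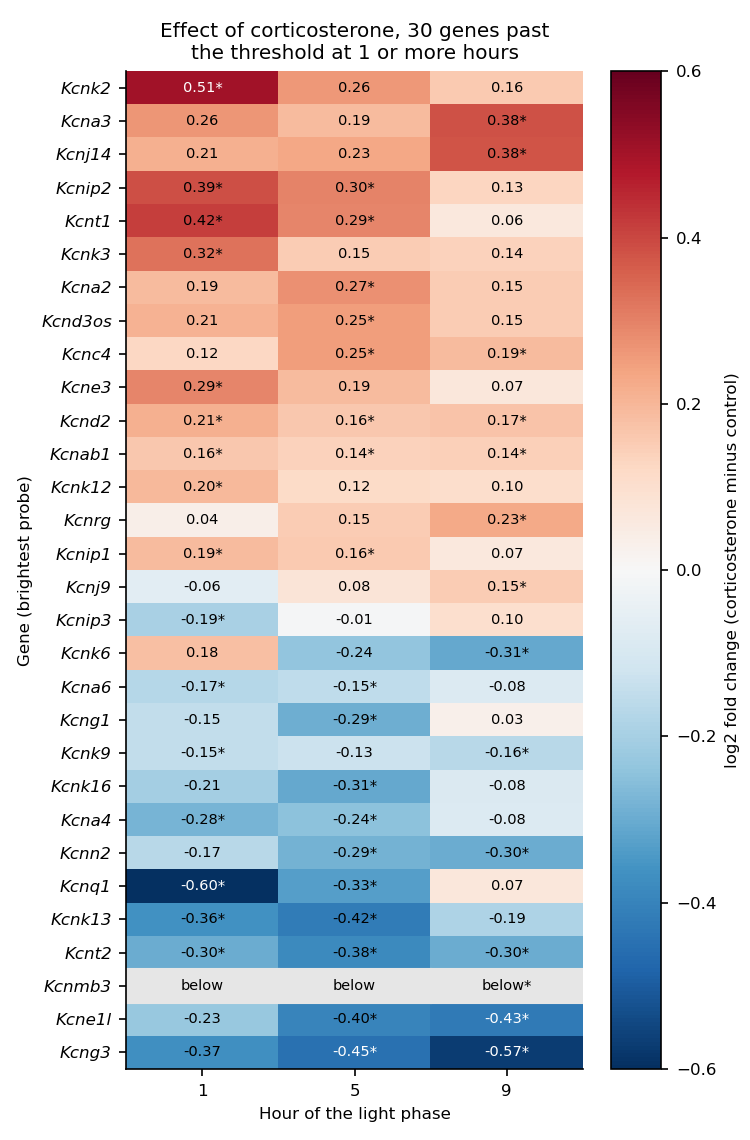
Log2 fold change of corticosterone minus control (rows: 30 members that passed at 1 or more hours; columns: hours 1, 5 and 9), with an asterisk for adjusted p under 0.05 and grey cells marked below where 1 or both treatments had no channel well above background. Kcnab1 and Kcnd2 are higher and Kcnt2 is lower at all 3 hours, and the lowest value drawn is -0.60 for Kcnq1 at hour 1.

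Kcnd2 encodes the main pore subunit of the dendritic A-type current in pyramidal cells. Its signal at hour 1 was 8309, 9069.7 and 9879.8 in control mice and 9438, 10291 and 12040 in treated mice. The ranges shared 2 mice of each treatment at hour 1, and the treated mouse was the higher one on 8, 8 and 7 of 8 arrays at hours 1, 5 and 9. The log2 fold changes were 0.21 ± 0.05, 0.16 ± 0.05 and 0.17 ± 0.05 (adjusted p = 0.0013, 0.0143 and 0.014). At hour 9 the means of slides 1, 2 and 3 were 0.25, 0.10 and 0.07, and Kcnd2 did not pass there without slide 1, nor at hour 5 without slide 2. Kcnab1 encodes a beta subunit that docks on Kcna channels and gives them fast inactivation. Control mice read 12531, 14584 and 15321 at hour 1 and treated mice 15059, 15670 and 17497. At hour 1, 5 of 8 treated mice lay above the whole control range, and the treated mouse was higher on 7, 8 and 7 of 8 arrays at the 3 hours. Its log2 fold changes were 0.16 ± 0.04, 0.14 ± 0.04 and 0.14 ± 0.04 (adjusted p = 0.00419, 0.0153 and 0.0145). The Kcnab1 calls held in 16, 15 and 14 of 18 other settings, and at no hour with the authors' table of log ratios.

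Kcnt2 encodes a sodium-activated potassium channel subunit and moved the other way. At hour 1 it read 399, 454 and 512 in control mice and 329, 367 and 420.3 in treated mice, and at hour 5 404, 455 and 525 and 318, 339 and 413. At hour 9 the values were 376, 412 and 464 in control and 248, 359 and 382 in treated mice. The treated mouse was the lower one on all 24 arrays, and at each hour the ranges overlapped through 1 or 2 mice of each treatment. The log2 fold changes were -0.30 ± 0.06, -0.38 ± 0.06 and -0.30 ± 0.06 (adjusted p = 0.000338, 9.13e-06 and 0.000641). At hour 9 the slide means were -0.45, -0.15 and -0.15, and the call was absent without slide 1. None of the 3 members differed in its effect between hours: the change from hour 1 to hour 9 was -0.05 ± 0.07 for Kcnd2, -0.02 ± 0.06 for Kcnab1 and 0.00045 for Kcnt2 (adjusted p = 1, 1 and 1).

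**Figure D3:**
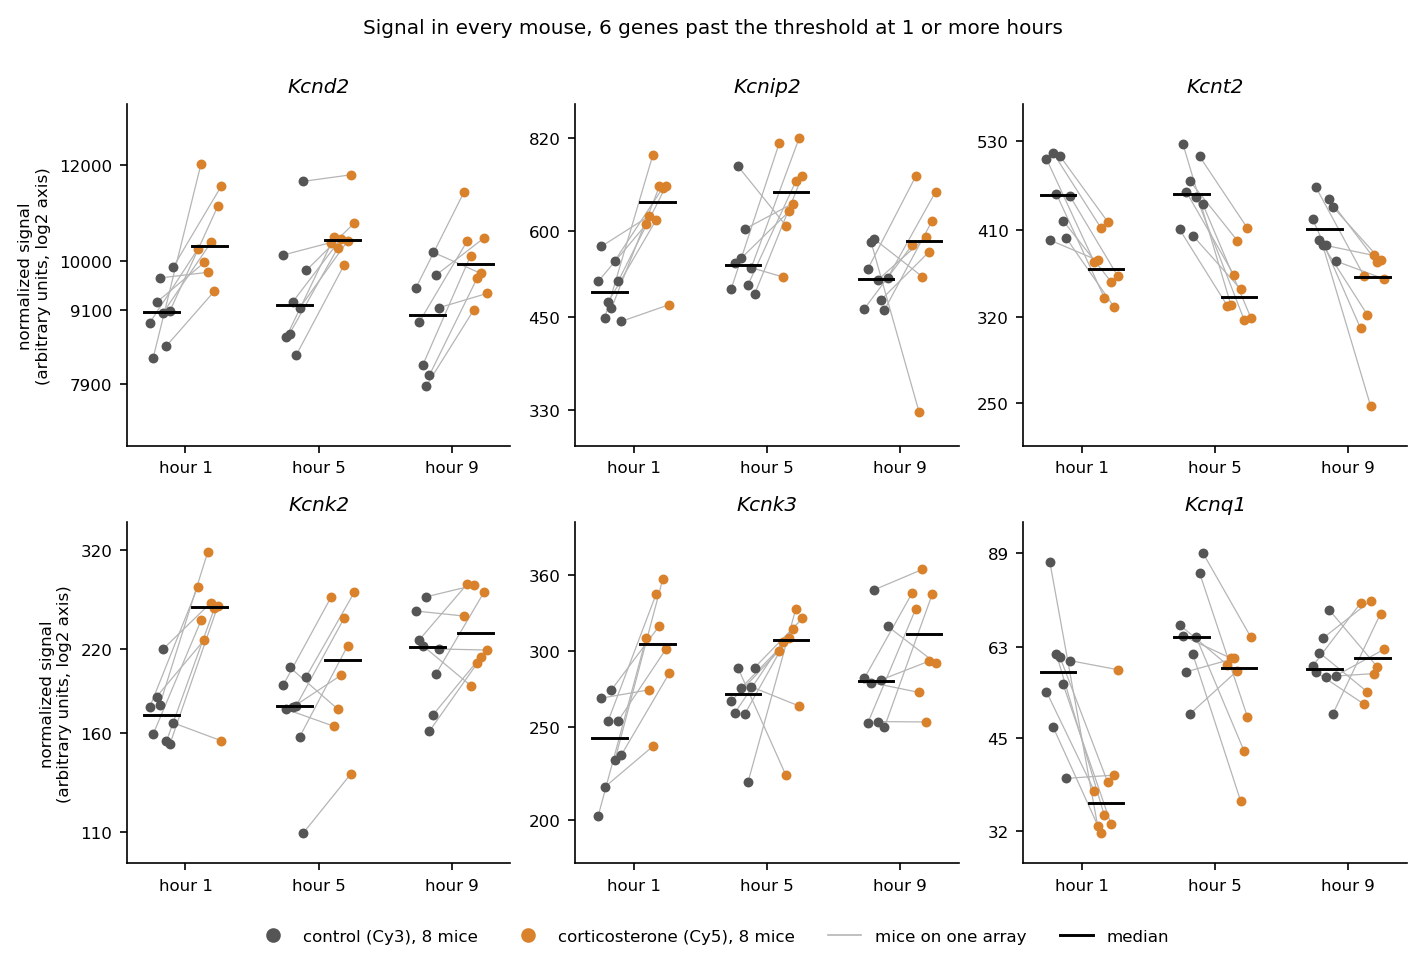
Normalized signal (log2 axis, arbitrary units) of Kcnd2, Kcnip2, Kcnt2, Kcnk2, Kcnk3 and Kcnq1 in every control mouse (Cy3, grey) and treated mouse (Cy5, orange) at hours 1, 5 and 9, with thin lines joining the mice of one array and bars at the medians of 8 mice. All lines slope down for Kcnt2 and all but 1, at hour 9, slope up for Kcnd2, while those of Kcnk2, Kcnk3 and Kcnq1 slope most at hour 1.

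Promoter windows, from 250 bases before to 50 after a transcription start, were available from RefSeq (GRCm38.p6) for 69 members in 91 windows. They were searched on both strands for the glucocorticoid half-site AGAACA, which 6233 of all 32851 windows hold (19%), for the E-box CACGTG (7.15%), the cAMP element TGACGTCA (1.79%) and the D-box TTATGTAA (0.938%). The half-site was found in 16 windows of 12 members and the E-box in 7 windows of 6 members, while neither the cAMP element, the D-box nor a pair of half-sites facing each other across 3 bases occurred in the 91 windows. Of the 30 members that passed at 1 or more hours 22 had a window, and 2 of these, Kcnab1 and Kcnk2, held a match. Kcnk2 encodes a leak channel opened by stretch and lipids. The windows with a match are printed with one each for Kcnd2 and Kcnt2, since these members were called at every hour or had the largest rise at hour 1. Each reads 5′ to 3′ along the strand given in brackets, and capitals mark motif letters on either strand. In the first Kcnab1 window the half-site starts 140 and the E-box 162 bases before the start, in the second the E-box starts 45 bases before it, and in the Kcnk2 window the half-site starts 241 bases before it. A match describes letters only.
Kcnab1 chr3:65108764-65109063 (+): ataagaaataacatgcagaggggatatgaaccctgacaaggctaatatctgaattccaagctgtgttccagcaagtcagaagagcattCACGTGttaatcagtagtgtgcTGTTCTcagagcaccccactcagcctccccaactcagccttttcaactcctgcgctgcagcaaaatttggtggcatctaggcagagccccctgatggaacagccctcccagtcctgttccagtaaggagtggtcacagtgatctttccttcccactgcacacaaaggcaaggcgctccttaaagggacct
Kcnab1 chr3:65187853-65188152 (+): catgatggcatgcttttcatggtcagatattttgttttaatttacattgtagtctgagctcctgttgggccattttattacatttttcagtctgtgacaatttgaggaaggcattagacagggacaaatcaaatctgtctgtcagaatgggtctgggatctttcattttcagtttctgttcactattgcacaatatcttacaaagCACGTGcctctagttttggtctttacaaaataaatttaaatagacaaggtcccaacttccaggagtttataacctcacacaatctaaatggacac
Kcnk2 chr1:189402224-189402523 (-): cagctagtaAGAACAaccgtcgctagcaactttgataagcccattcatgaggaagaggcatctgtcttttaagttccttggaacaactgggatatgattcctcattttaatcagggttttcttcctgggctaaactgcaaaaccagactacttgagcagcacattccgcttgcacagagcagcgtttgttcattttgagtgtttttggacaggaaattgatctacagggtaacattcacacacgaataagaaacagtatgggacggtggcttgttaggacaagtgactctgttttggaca
Kcnd2 chr6:21215096-21215395 (+): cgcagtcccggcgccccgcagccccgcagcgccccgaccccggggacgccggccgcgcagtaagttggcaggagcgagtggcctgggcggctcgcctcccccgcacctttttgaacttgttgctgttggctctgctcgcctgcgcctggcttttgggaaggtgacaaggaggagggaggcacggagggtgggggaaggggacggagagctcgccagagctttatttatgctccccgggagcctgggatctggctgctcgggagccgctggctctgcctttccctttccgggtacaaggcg
Kcnt2 chr1:140245468-140245767 (+): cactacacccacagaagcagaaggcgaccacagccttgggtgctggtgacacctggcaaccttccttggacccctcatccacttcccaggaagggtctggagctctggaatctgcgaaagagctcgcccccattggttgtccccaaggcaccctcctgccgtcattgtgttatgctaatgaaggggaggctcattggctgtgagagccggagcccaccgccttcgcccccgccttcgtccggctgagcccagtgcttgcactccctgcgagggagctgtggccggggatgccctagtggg

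Among the 8 Kcna genes, voltage-gated channels of axons and terminals, 0, 1 and 1 were higher and 2, 2 and 0 lower at hours 1, 5 and 9. Of all named genes 10.3%, 9.9% and 8.37% were higher and 10.4%, 10.9% and 7.21% lower. Kcna4, an A-type channel subunit, read 1195, 1725 and 1818 in control and 1144, 1347 and 1535 in treated mice at hour 1. At hour 5 it read 1518, 1627 and 2146 and 1327, 1452 and 1569. At both hours all 8 treated mice lay below the control median, and the treated mouse was lower on 7 and 8 of 8 arrays. The log2 fold changes were -0.28 ± 0.06 (adjusted p = 0.00064) and -0.24 ± 0.06 (adjusted p = 0.00232), then -0.08 ± 0.06 at hour 9 (adjusted p = 0.371). On slide 1 alone the hour 1 mean of 2 arrays was 0.08, opposite in sign to -0.29 and -0.50 on the other slides. Kcna6, a delayed rectifier, was lower at hours 1 and 5, with -0.17 ± 0.04 and -0.15 ± 0.04, each on 7 of 8 arrays (adjusted p = 0.00183 and 0.00617). Neither Kcna6 call held with the second brightest probe. Kcna2, a delayed rectifier of axons, was higher at hour 5 on 7 of 8 arrays, with a log2 fold change of 0.27 ± 0.08 (adjusted p = 0.0123), and Kcna3 at hour 9 on all 8, with 0.38 ± 0.10 (adjusted p = 0.00745). The Kcna2 call was absent without slide 1 and without slide 3. Kcna1, a low-threshold channel that limits firing, had log2 fold changes of -0.09, -0.13 and -0.09 and passed at no hour (adjusted p = 0.253, 0.0954 and 0.328). Kcnab2, another beta subunit of Kcna channels, did not pass either, with values between -0.02 and 0.08.

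Kcnc genes encode channels that open at strong depolarization and close quickly, and Kcnc4 forms a fast-inactivating one. It was the one of the 4 Kcnc genes that passed. At hour 5 it read 2046, 2266 and 3110.2 in control mice and 2639.5, 2836 and 3008 in treated mice. All 8 treated mice lay above 7 of the 8 control mice, and the remaining control mouse was the highest of the 16. The log2 fold change was 0.25 ± 0.07 at hour 5 (higher on 7 of 8 arrays, adjusted p = 0.00572) and 0.19 ± 0.07 at hour 9 (7 of 8 arrays, adjusted p = 0.0483). The hour 9 call held in 9 of 18 other settings, and was absent with slide as a block and from the log ratio of each array. All 4 Kcnd genes, the antisense RNA Kcnd3os included, had log2 fold changes above 0 at every hour, also under each of 6 other scalings or fits. At hours 1, 5 and 9, 1, 2 and 1 of them passed (all named genes, higher, 10.3%, 9.9% and 8.37%). Kcnd3os was the one besides Kcnd2, at hour 5 (0.25 ± 0.09, higher on 6 of 8 arrays, adjusted p = 0.0404), a call that held in 11 of 18 other settings and not without replicate 2 of that hour.

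Kcnip genes encode calcium-binding proteins that assemble with Kcnd channels. Kcnip2 read 444, 490.5 and 571 in control and 469.7, 663 and 774 in treated mice at hour 1. The treated mouse was higher on all 8 arrays, although the lowest treated mouse lay inside the control range. Its log2 fold change was 0.39 ± 0.10 at hour 1 (adjusted p = 0.00408), 0.30 ± 0.10 at hour 5 (6 of 8 arrays, adjusted p = 0.0249) and 0.13 ± 0.10 at hour 9 (adjusted p = 0.406). The Kcnip2 call at hour 5 was absent without slide 3, from the log ratio of each array and with the authors' table. Kcnip1, found mainly in interneurons, was higher by 0.19 ± 0.06 and 0.16 ± 0.06 at hours 1 and 5, each on 7 of 8 arrays (adjusted p = 0.0183 and 0.0474). The hour 1 call was absent when any one of the 3 slides was left out and with the second brightest probe. The hour 5 call held in 10 of 18 other settings, and was absent with slide as a block and without replicate 2 of that hour. At hour 5, where 4 of 6 GABA neuron markers were also higher, the summed signal of those markers had a median of 78810 in control and 89478 in treated mice, with Sst the brightest, and their part in the Kcnip1 value was not tested. Kcnip3, which also acts as a transcriptional repressor, was lower at hour 1 on 7 of 8 arrays (-0.19 ± 0.07, adjusted p = 0.0355), where slide 1 had a mean of -0.57 and slides 2 and 3 -0.12 and -0.01. Replicate 2, on slide 1, stood apart there with -0.80. The Kcnip3 call was absent without slide 1, without slide 2 and with the second brightest probe. Kcnip4 was 0.19 ± 0.13 at hour 1 and passed at no hour.

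Silent subunits form no channel alone and modify Kcnb channels, while Kcne genes encode single-span accessory subunits. Kcng1 was lower at hour 5 (-0.29 ± 0.09, 6 of 8 arrays, adjusted p = 0.015), and the dim Kcng3 probe at hours 5 and 9 (-0.45 ± 0.13 and -0.57 ± 0.13, 7 and 8 of 8 arrays, adjusted p = 0.0196 and 0.00312), the first of which did not pass without replicate 2 of hour 5. No Kcnf, Kcns or Kcnv gene passed at any hour by limma, and at an unadjusted p under 0.05 there was 1, a Kcnv gene at hour 9. Kcns2 had log2 fold changes of -0.03, -0.03 and 0.07, and Kcnv1 0.02, 0.09 and 0.17. Kcne1l, an accessory subunit also called Kcne5, read 705, 899 and 1071 in control and 565, 646 and 796 in treated mice at hour 9. The ranges overlapped through 2 mice of each treatment, and the treated mouse was lower on all 8 arrays at hour 5 and again at hour 9. The log2 fold changes were -0.40 ± 0.09 (adjusted p = 0.000933) and -0.43 ± 0.09 (adjusted p = 0.000569), after -0.23 ± 0.09 at hour 1 (adjusted p = 0.0626), where replicate 8 alone was above 0. Kcne3 was higher at hour 1 (0.29 ± 0.09, 6 of 8 arrays, adjusted p = 0.0233) and did not pass without replicate 8. None of the 8 Kcnh genes, the ether-a-go-go family, passed at any hour by limma (0, 2 and 1 at an unadjusted p under 0.05). All named genes passed in 20.7%, 20.8% and 15.6%. Kcnh7 had log2 fold changes of -0.10, -0.19 and -0.22 (adjusted p = 0.486, 0.136 and 0.0856). Kcnrg, a soluble protein that hinders assembly of voltage-gated channels, was higher at hour 9 (0.23 ± 0.07, 7 of 8 arrays, adjusted p = 0.0314), a call absent with the slide of each dye as a block, when any one of the 3 slides was left out and with the second brightest probe.

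Kcnq3 and Kcnq5 encode subunits of the M current, which muscarinic receptors close, and passed at no hour. Kcnq3 had log2 fold changes of 0.06, -0.01 and -0.08, and Kcnq5 0.03, 0.14 and 0.23 (adjusted p = 0.0529 at hour 9). The hour 9 value of Kcnq5 passed with no background correction, with Aquantile normalization, without replicate 8 of hour 1 and in several further settings. Kcnq1, best known from heart and epithelia, passed at hours 1 and 5. At hour 1 it read 38.8, 57.4 and 86.2 in control mice and 31.8, 35.5 and 57.9 in treated mice. All but 2 treated mice lay below the whole control range. It was lower on 7 of 8 arrays, with a log2 fold change of -0.60 ± 0.12 (adjusted p = 0.000617). At hour 5 it was lower by -0.33 ± 0.12 (6 of 8 arrays, adjusted p = 0.0362), a call that held in 10 of 18 other settings. Neither Kcnq1 call held with the second brightest probe. At hour 9 the value was 0.07 ± 0.12 (adjusted p = 0.742).

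Kcnma1 and Kcnmb4 encode the pore and the neuronal beta subunit of the large-conductance calcium-activated channel, and Kcnn genes the small-conductance channels behind the afterhyperpolarization. Kcnma1 had log2 fold changes of 0.03, 0.03 and -0.0036 and Kcnmb4 of 0.10 ± 0.05 at hour 1, and neither passed. Kcnmb4 was nevertheless higher on 8 of 8 arrays at hour 1 (adjusted p = 0.125). Replicate 8 stood apart there with 0.41, where the next value was 0.15 and the median 0.06. Kcnn2 was the Kcnn gene that passed, with 4562, 5139.5 and 6490.4 in control and 3618, 4321 and 5344 in treated mice at hour 5. At hour 5, 5 of 8 treated mice lay below the whole control range, and the treated mouse was lower on 8 of 8 arrays at hour 5 and 6 of 8 at hour 9. The log2 fold change was -0.29 ± 0.08 at hour 5 (adjusted p = 0.00837) and -0.30 ± 0.08 at hour 9 (adjusted p = 0.00746), after -0.17 ± 0.08 at hour 1 (adjusted p = 0.138). Both calls were absent with the second brightest probe and without slide 2, and the one at hour 5 also without slide 3. Kcnn1 had 0.02, 0.02 and 0.11 and passed at no hour.

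Kcnt1, like Kcnt2 a sodium-activated channel subunit, rose where Kcnt2 fell. At hour 1 it read 436, 506 and 587 in control and 585, 646 and 903 in treated mice. At hour 5 it read 461, 506 and 522 and 567, 600.2 and 689, and at hour 9 412, 512 and 566 and 413, 517 and 627. A single mouse of each treatment crossed into the other range at hour 1, the groups were fully apart at hour 5, and they overlapped throughout at hour 9. The log2 fold change was 0.42 ± 0.07 at hour 1 (7 of 8 arrays, adjusted p = 4.35e-06), 0.29 ± 0.07 at hour 5 (8 of 8, adjusted p = 0.000928) and 0.06 ± 0.07 at hour 9 (6 of 8, adjusted p = 0.561).

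Among the 12 Kcnj genes, the inward rectifiers, none passed at hours 1 and 5 by limma (4 and 1 at an unadjusted p under 0.05). At hour 9, 2 passed, both higher (all named genes, higher, 8.37%). Kcnj14, a strong inward rectifier, read 301, 411 and 457 in control and 446, 503 and 697 in treated mice at hour 9. One mouse of each treatment reached into the other range, and the treated mouse was higher on all 8 arrays. Its log2 fold change was 0.38 ± 0.09 (adjusted p = 0.00279), after 0.21 ± 0.09 and 0.23 ± 0.09 at hours 1 and 5 (adjusted p = 0.0905 and 0.0623). The hour 9 means of slides 1, 2 and 3 were 0.41, 0.42 and 0.28, and the call was absent without slide 1. Kcnj9, Kcnj3 and Kcnj6 encode subunits of the channels that GABA, serotonin and adenosine receptors open. Kcnj9 was higher at hour 9 on 7 of 8 arrays (0.15 ± 0.05, adjusted p = 0.00986), with slide means of 0.20, 0.22 and -0.013. The Kcnj9 call was absent without slide 1, without slide 2 and with the second brightest probe. Kcnj3 did not pass at hour 1 (0.13 ± 0.05, 7 of 8 arrays, adjusted p = 0.0506). It passed with slide as a block, with no background correction, without replicate 8 and in several further settings. Kcnj6 had 0.29 ± 0.13 at hour 1 (adjusted p = 0.111) and passed without replicate 8. Kcnj11, the pore of the ATP-sensitive channel, had log2 fold changes between -0.03 and 0.03 and did not pass.

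Leak channels of the Kcnk group gave 3 higher and 2 lower of 14 genes at hour 1, then 0 higher and 2 lower at each of hours 5 and 9. All named genes gave 10.3%, 9.9% and 8.37% higher and 10.4%, 10.9% and 7.21% lower at the 3 hours. A difference of the group from these shares was not tested. Kcnk2 read 153, 172 and 219.9 in control and 156, 257 and 317 in treated mice at hour 1. Of the treated mice 7 lay above the whole control range, and the eighth lay near its floor. The log2 fold change was 0.51 ± 0.11 (7 of 8 arrays, adjusted p = 0.000666), the highest of the 95 members at hour 1, and 0.26 ± 0.11 and 0.16 ± 0.11 at hours 5 and 9 (adjusted p = 0.0885 and 0.354). Kcnk3, an acid-sensitive leak channel, read 202, 244 and 273 and 239, 305 and 356 in control and treated mice at hour 1. Again 7 treated mice lay above the control range, and all 8 arrays had the treated mouse higher. Its log2 fold change at hour 1 was 0.32 ± 0.08 (adjusted p = 0.00168), a call absent without slide 3. Kcnk9, the close relative of Kcnk3, was lower at hours 1 and 9, with -0.15 ± 0.06 and -0.16 ± 0.06, each on 7 of 8 arrays (adjusted p = 0.0372 and 0.0253). Each call held in 13 of 18 other settings, and the one at hour 9 was absent with the slide of each dye as a block. Both Kcnk9 calls were absent with the second brightest probe. Kcnk12 was higher at hour 1 on 8 of 8 arrays (0.20 ± 0.07, adjusted p = 0.0311), and Kcnk1 had 0.26 ± 0.15 there without passing (adjusted p = 0.223). The Kcnk12 call was absent without slide 2 and without slide 3.

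Kcnk13, the main leak channel of microglia, read 367, 533 and 698 in control and 337, 373 and 517 in treated mice at hour 5. At hour 5, 3 of 8 treated mice lay below the whole control range and 5 lay inside it, and the treated mouse was lower on 7 of 8 arrays at hours 1 and 5. The log2 fold changes were -0.36 ± 0.10 and -0.42 ± 0.10 (adjusted p = 0.00592 and 0.00125), then -0.19 ± 0.10 at hour 9 (adjusted p = 0.183). Of 6 microglial markers P2ry12, Aif1 and Cx3cr1 were lower at hour 1, P2ry12 and Aif1 at hour 5 and P2ry12 at hour 9, while Tmem119, Csf1r and C1qa did not pass. The summed signal of the 6 markers had medians of 15417 and 14566 in control and treated mice at hour 1 and 16028 and 15224 at hour 5, with Csf1r the brightest. Their part in the Kcnk13 result was not tested. The dim Kcnk16 probe was lower at hour 5 (-0.31 ± 0.09, 7 of 8 arrays, adjusted p = 0.0189).

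Whether the effect itself differed between hours was tested next, since a constant dye difference cancels there. From hour 1 to hour 9 it changed for 2 of 95 members, Kcnk6 and Kcnt1 (background 1.45%). From hour 1 to hour 5 no member passed by limma (background 0.0631%), nor from hour 5 to hour 9 (background 0.156%). At an unadjusted p under 0.05 there were 3 members in each case, and 1047 and 1472 of the 23787 named genes. Kcnk6, a leak channel that also sits on lysosomes, read 210.4, 243 and 291 in control and 213, 261 and 427 in treated mice at hour 1, and 232, 277 and 330 and 203, 231 and 251 at hour 9. At hour 1 the groups overlapped with treated mice reaching higher, and at hour 9 all treated mice but 3 lay below the control range. The log2 fold change went from 0.18 ± 0.09 (6 of 8 arrays higher, adjusted p = 0.156) through -0.24 ± 0.09 (adjusted p = 0.0631) to -0.31 ± 0.09 (8 of 8 lower, adjusted p = 0.0168), a change of -0.49 ± 0.13 (adjusted p = 0.0451). At hour 5 replicate 2 was the one array above 0 for Kcnk6, with 0.26. Kcnk6 passed at that hour without this array, and also without replicate 8 of hour 1. For Kcnt1 the change was -0.35 ± 0.09 (adjusted p = 0.0349), and it did not pass with the slide of each dye as a block, from the log ratio of each array or with the authors' table. Without replicate 8 of hour 1 neither passed: the change was -0.44 for Kcnk6 (adjusted p = 0.0745) and -0.30 for Kcnt1 (adjusted p = 0.0803), and Kcnj9 and Kcnq1 passed in their place. With all arrays, Kcnj9 had 0.22 ± 0.06 (adjusted p = 0.0693) and Kcnq1 0.67 ± 0.17 (adjusted p = 0.0513). Without replicate 2 of hour 5 the same 2 members passed. Within slides 1, 2 and 3 the change was -0.31, -0.18 and -0.98 for Kcnk6 and -0.06, -0.29 and -0.71 for Kcnt1, below 0 on each slide and lowest on slide 3. Without slide 3 it was -0.26 for Kcnk6 and -0.20 for Kcnt1, and neither passed (adjusted p = 0.617 and 0.692).

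**Figure D4:**
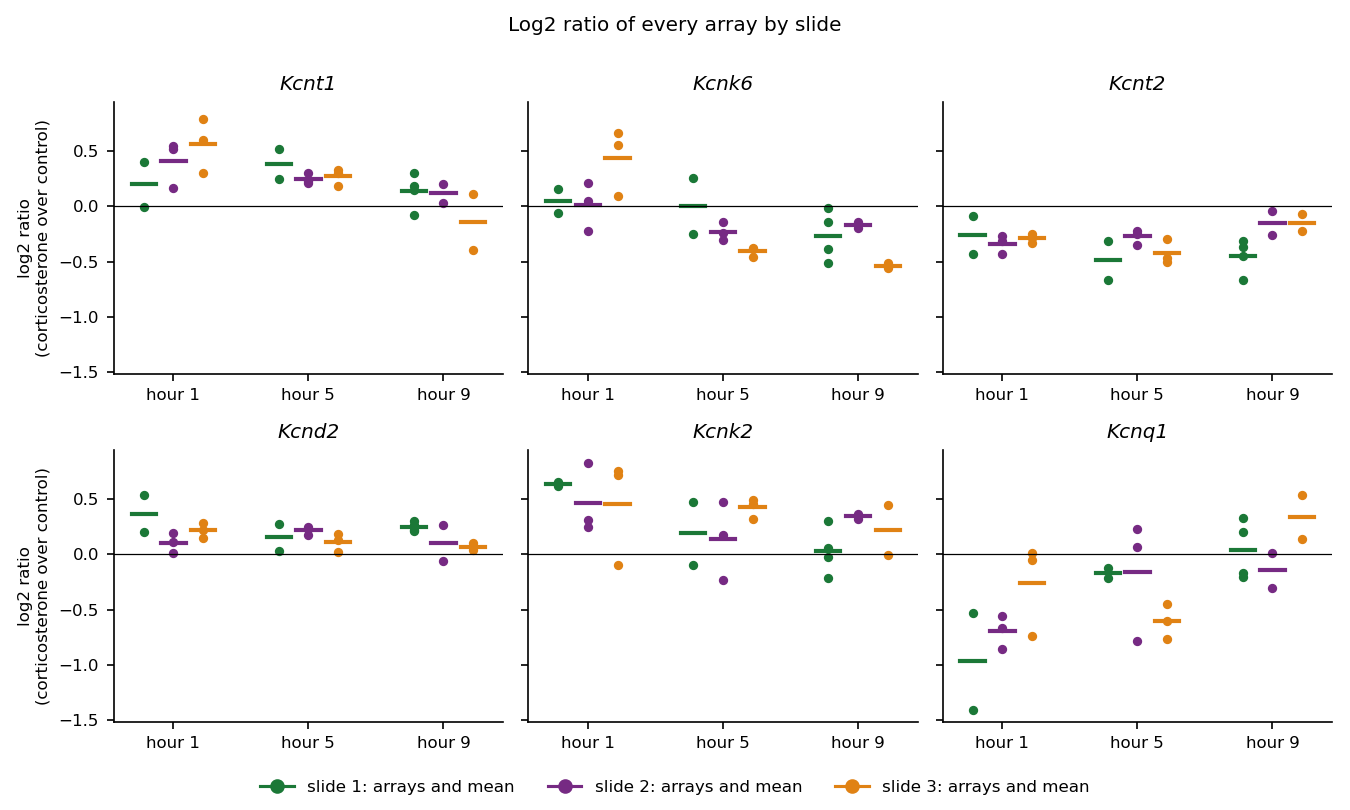
Log2 ratio of corticosterone over control for Kcnt1, Kcnk6, Kcnt2, Kcnd2, Kcnk2 and Kcnq1 on each of the 24 arrays (points) by hour and slide, with bars at the mean of each slide. Kcnt2 lies below 0 on every array, and the fall of Kcnt1 and Kcnk6 from hour 1 to hour 9 is widest on slide 3.

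Mice of one treatment were then compared between hours, which involves a single dye but leaves differences between arrays and litters in place. In control mice 2 members passed between hour 1 and hour 9, both higher at hour 9 (background 0.837%). None passed by limma between hours 1 and 5 (background 0.00841%) or hours 5 and 9 (background 0.0673%). At an unadjusted p under 0.05 the last 2 comparisons held 6 and 12 members, and 1883 and 1722 of the 23787 named genes. Kcns1, a silent subunit, read 631, 825 and 918 in control mice at hour 1 and 885, 965 and 1154 at hour 9, and 708, 839.5 and 1048 and 933, 1006 and 1184 in treated mice. At hour 9, 7 of 8 control mice and 3 of 8 treated mice exceeded every mouse of their treatment at hour 1. The log2 difference was 0.32 ± 0.07 in control mice (adjusted p = 0.0182) and 0.30 ± 0.07 in treated mice (adjusted p = 0.0055), and by slide it was 0.47, 0.26 and 0.12 in control mice. Without slide 1 it was 0.19 in control mice (adjusted p = 0.897), and it did not pass there without slide 2 either. In treated mice it did not pass when any one of the 3 slides was left out. Kcne4, an accessory subunit, was the other member. It was well above background in 0 of 8 control channels at hour 1 and 6 of 8 at hour 9, so that its rise is a bound of at least 1.29-fold (adjusted p = 0.0447), with 6 of 8 mice at hour 9 above all mice at hour 1. For the bound, each signal at hour 1 was raised to the lowest one that counted as well above background on its array. The Kcne4 difference was smaller than this bound with no background correction, and it did not pass when any one of the 3 slides was left out or with Aquantile normalization. Without replicate 8 of hour 1, Kcne4 did not pass (adjusted p = 0.0536) and Kcnj4 did, so that the count was 2. Without replicate 2 of hour 5 it was 3.

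In treated mice 5 members differed between hour 1 and hour 9 (background 6.23%) and 3 between hour 1 and hour 5 (background 0.858%). None passed by limma between hours 5 and 9 (background 1.11%). At an unadjusted p under 0.05 there were 16 members there, and 2895 of the 23787 named genes. Kcnj4, a strong inward rectifier of the postsynaptic density, read 10351, 12721 and 14137 in treated mice at hour 1 and 14524, 15686 and 16474 at hour 9, and all 8 mice of hour 9 exceeded those of hour 1. The log2 difference was 0.33 ± 0.09 (adjusted p = 0.00946) in treated mice and 0.30 ± 0.09 in control mice (adjusted p = 0.0739). In treated mice the Kcnj4 difference did not pass without slide 2, without slide 3 or with the second brightest probe. Kcnq1 was higher at hour 9 by 0.74 ± 0.14 (adjusted p = 0.000277), with 5 of 8 treated mice above all of hour 1, and 0.07 ± 0.14 in control mice (adjusted p = 0.836). With no background correction the difference in treated mice was 0.47, and with the processed signals of the scanner software 1.29, for a probe well above background in 46 of 48 channels. No control mouse of hour 9 lay outside the Kcnq1 range of control mice at hour 1. Kcna4 was higher by 0.24 ± 0.07 (6 of 8 mice above all of hour 1, adjusted p = 0.0331), and Kcnt1 was lower, with -0.35 ± 0.08 (6 of 8 mice below all of hour 1, adjusted p = 0.00158). Kcna4 did not pass without slide 2, without slide 3, with p from values without offset or with the processed signals. Kcnt1 did not pass without slide 3 or with the second brightest probe. From hour 1 to hour 5, Kcnc4 was higher by 0.35 ± 0.08 (adjusted p = 0.0154), with all 8 treated mice above those of hour 1. Kcnj2, another strong inward rectifier, was higher by 0.48 ± 0.12 (3 of 8 mice above all of hour 1, adjusted p = 0.0398), and Kcnk6 was lower, with -0.42 ± 0.11 (5 of 8 below all of hour 1, adjusted p = 0.0394). Without replicate 8 of hour 1 none of the 3 passed between hours 1 and 5, where Kcnq1 did instead, and 4 of the 5 passed between hours 1 and 9, all but Kcna4. Without replicate 2 of hour 5 the counts were 3 and 7.

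**Figure D5:**
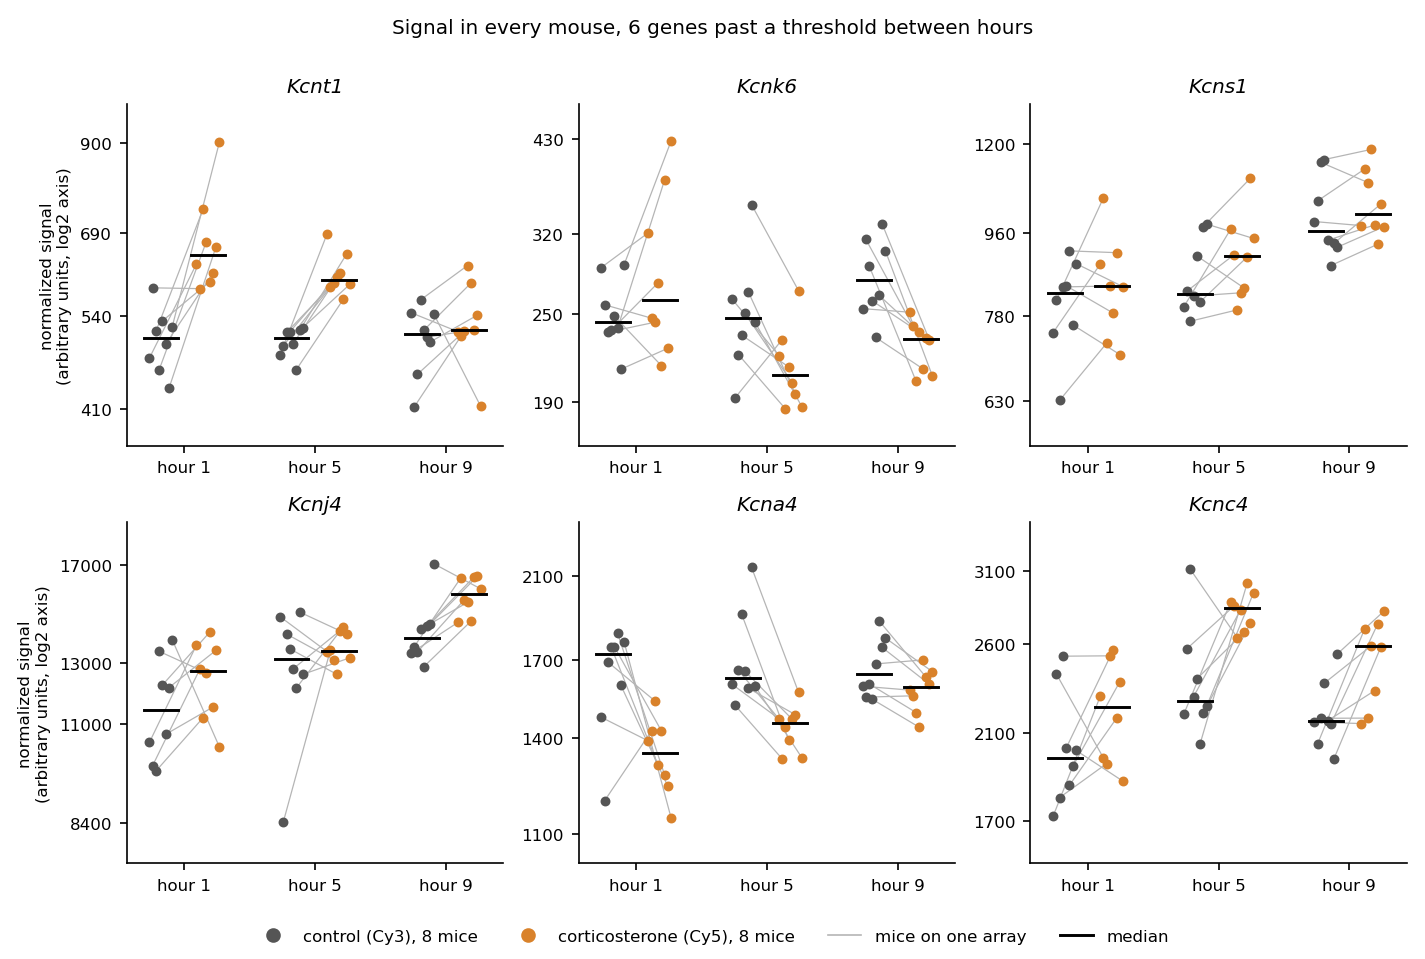
Normalized signal (log2 axis, arbitrary units) of Kcnt1, Kcnk6, Kcns1, Kcnj4, Kcna4 and Kcnc4 in every control mouse (Cy3, grey) and treated mouse (Cy5, orange) at hours 1, 5 and 9, with thin lines joining the mice of one array and bars at the medians of 8 mice. Treated mice of hour 9 lie above those of hour 1 for Kcnj4, and treated mice of hour 5 above those of hour 1 for Kcnc4.

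Other probes of a gene were read beside the brightest one. Of 29 members with a further probe of mean signal 50 or more (39 such probes), the brightest probe passed in 3, 5 and 4 pairs at hours 1, 5 and 9. The other probe had the same sign in 3, 3 and 2 of these pairs, and passed as well in 1, 2 and 0. The other probe alone passed in 6, 5 and 4 pairs. For Kcnc1, a channel of fast-spiking interneurons, the brightest probe did not pass, while at hour 1 the other probes passed in opposite directions (-0.23 and 0.20, adjusted p = 0.000286 and 0.0183). For Kcnma1 the second probe was lower at hours 5 and 9 (-0.18 and -0.17, adjusted p = 0.00683 and 0.0139) and the third higher (0.26 and 0.25, adjusted p = 0.000364 and 0.00106). Which transcripts these probes read was not tested, and neither gene is given a direction.

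Partners of potassium channels were read beside the subunits, from 28 genes for auxiliary proteins, anchors, coupled receptors and the related Hcn channels. At hours 1, 5 and 9, 12, 6 and 4 of them passed, with 8, 5 and 3 higher and 4, 1 and 1 lower (all named genes 20.7%, 20.8% and 15.6%). Their median log2 fold change was 0.04, 0.04 and 0.07. Dpp6, which speeds Kcnd channels, was higher at each hour (0.20 ± 0.06, 0.22 ± 0.06 and 0.22 ± 0.06, adjusted p = 0.00752, 0.00255 and 0.00322, 7 of 8 arrays each time). Adora1, the adenosine receptor that opens Kcnj channels, was higher on all 24 arrays (0.19 ± 0.04, 0.20 ± 0.04 and 0.14 ± 0.04, adjusted p = 0.000152, 9.23e-05 and 0.00671), and Akap5, an anchor of the M channel, on 7 of 8 arrays at each hour, with 0.15, 0.11 and 0.11. Htr1a, a serotonin receptor, was higher at hours 1 and 5 (0.30 ± 0.08 and 0.32 ± 0.08). Also past the threshold were Cntnap2 at hours 1 and 5, and at hour 1 Gabbr1, Nedd4l and Sgk1 (higher) and Lrrc55, Ank3 and Hcn3 (lower). Partners past the threshold are not all named here. The effect changed from hour 1 to hour 9 for 2 partners, Sgk1 and the ubiquitin ligase Nedd4l, which acts on Kcnq channels (-0.31 ± 0.06, adjusted p = 0.00171; background 1.45%). From hour 1 to hour 5 it changed for Sgk1 alone (-0.72 ± 0.10, adjusted p = 2.5e-05, background 0.0631%).

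Of 12 genes for potassium pumps and cotransporters 6, 7 and 8 passed at hours 1, 5 and 9, with 5, 5 and 6 higher (all named genes 20.7%, 20.8% and 15.6%), and a median log2 fold change of 0.08, 0.12 and 0.12. Atp1b2, the beta subunit of the sodium pump in glia, was higher on all 24 arrays (0.31 ± 0.04, 0.34 ± 0.04 and 0.35 ± 0.04, adjusted p = 2.34e-07, 2.55e-08 and 3.2e-08). Slc12a5, the cotransporter that keeps neuronal chloride low, was lower (-0.14, -0.11 and -0.15), as was Slc12a2, which imports chloride, at hours 5 and 9 (-0.25 and -0.26). Slc24a2 and Slc24a3 were higher at each hour and Slc12a7 at hour 9, and for none of the 12 did the effect change between hours, by limma or at an unadjusted p under 0.05.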

How the data were processed

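As deposited, the scanner files hold median pixel intensities of spots and local background in Cy3 and Cy5 without normalization, together with processed signal intensities and spot marks of the Agilent Feature Extraction software. The authors also deposited a table of log2 ratios per probe and array, normalized within arrays, which was used as an alternative alone. In R 4.3.3 with limma 3.58.1 and statmod 1.5.0, the local background was taken off by the normexp method, adding 50 before the values used for testing and 0 before those used for fold changes, standard errors and signals. Loess normalization within arrays and quantile normalization between arrays followed. The 3671 control spots were removed, spots marked as outliers were treated as missing, and copies of a probe were averaged. Limma then treated the 48 channels as 6 groups in its separate channel test (intraspot correlation 0.279), with Benjamini and Hochberg adjustment over 56605 probes in each comparison and a threshold of 0.05. Python 3.11.15 with pandas 2.3.3, numpy 2.4.6 and matplotlib 3.10.9 matched names and drew figures. Names were found for 34566 probes, and 22039 probes without one were left out of all gene counts. The steps were tested on simulated data.

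The members and lists were chosen with earlier results of these data known. Members named are those past the threshold with a mean signal of 50 or more and one direction on all 8 arrays of an hour (up to 10 per direction), those past it between hours, subunits known from hippocampal neurons, and members whose probes passed in opposite directions. From the lists of channel partners, pumps and cotransporters, glucocorticoid response genes, clock genes and cell markers, genes past the threshold were named. Some genes chosen by these rules are not reported here. Alternatives changed the offset, background correction, normalization, signal filter, slide term, arrays and slides used, test, table, adjustment and probe.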

Additional observations from a re-analysis of the deposited data

Results flagged for a closer look

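In 14 of 123 groups of 8 arrays (41 named members at 3 hours) 1 array lay far from the others in its log2 ratio of corticosterone over control. Chance alone would single out about 1 in 20 groups. The groups share the same arrays, and some members were named for one direction on all 8, so the count of 14 was not tested against this rate. Replicate 8 of hour 1 did so for 5 members, with 0.31 for Kcne1l, -0.17 for Kcnj3, -0.28 for Kcnk1, 0.41 for Kcnmb4 and -0.54 for Kcnq3. Replicate 2 of hour 5 did so for 2, with 0.67 for Kcnj4 and 0.26 for Kcnk6. At hour 1, replicate 2 stood apart for Kcnip3 (-0.80). At hour 5 replicate 3 stood apart for Kcna1 (0.16), replicate 6 for Kcnk12 (0.59) and replicate 1 for Kcnt1 (0.52). At hour 9 replicate 3 stood apart for Kcnab2 (-0.57), replicate 2 for Kcne1l (-0.77) and replicate 8 for Kcnj4 (-0.10).

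The corticosterone effect differed between hour 1 and hour 9 by limma for 2 members, with a change in log2 fold change of -0.49 for Kcnk6 and -0.35 for Kcnt1. It also differed for the channel partners Sgk1 and, with -0.31, Nedd4l. Neither member passed without replicate 8 of hour 1, without slide 2 or without slide 3. No cause was tested.

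Treatment and dye coincide on every array, so effects within an hour cannot be separated from dye. Whole hippocampi were measured, so cells of a type and RNA per cell cannot be told apart. The arrays measure RNA and not channel protein or current. Probes without a gene name could not be assigned to a subfamily, and members with signals near background have imprecise ratios.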

How the results depend on the processing

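Over the alternatives, 9 to 26 members passed at hour 1 (16 of 18 alternatives within 1.5 times the reported count of 16), 9 to 22 at hour 5 (17 of 18, reported 18), 1 to 20 at hour 9 (16 of 18, reported 14), 0 to 4 for the change of effect from hour 1 to hour 9 (7 of 17, reported 2), 0 to 3 in control mice (10 of 15, reported 2) and 1 to 8 in treated mice (12 of 15, reported 5) between these hours. Without slide 1, 1 member passed at hour 9, 1 for the change of effect and 0 in control mice. Without slide 2, 9 passed at hour 1, 6 at hour 9, and 0 each for the change and in control mice. Without slide 3, 9 passed at hour 5, and 1 each for the change (Kcnj9, with Kcnk6 and Kcnt1 lost), in control mice and in treated mice. Each of these settings holds fewer arrays. The authors' table gave 26 at hour 1 and 1 (Kcnk6) for the change. The change of effect also had 1 with p from values without offset (Kcnq1), 1 with the slide of each dye as a block and 1 from the log ratio of each array (Kcnk6 in both), and 0 with the second brightest probe. With probes of mean signal 50 or more alone, 4 passed for the change, 1 in control mice and 8 in treated mice, and with probes well above background in 8 or more channels 4 and 8 passed for the change and in treated mice, with fewer probes tested in both. Aquantile normalization gave 1 in control mice. For the other settings the cause was not tested. Kcnk6 passed for the change in 10 of 16 alternatives (adjusted p from 0.0139 to 0.617), and Kcnt1 in 9 of 16 (0.0133 to 0.692). Without replicate 8 of hour 1, and then without replicate 2 of hour 5, the counts were 21 and 17 at hour 1, 19 and 17 at hour 5, 15 and 14 at hour 9, 2 and 2 for the change, 2 and 3 in control mice and 4 and 7 in treated mice. No other array was left out alone. Among log2 fold changes of named members that passed, the sign turned for Kcna4 at hour 1 within slide 1 (0.084) and Kcnj9 at hour 9 within slide 3 (-0.013), and the cause was not tested. The slide of each dye as a block and the settings without replicate 8 of hour 1 or replicate 2 of hour 5 were added after the data were seen. Signals near background limit the ratios of dim probes.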
